A study of Mus musculus with 22 samples.

Results

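Primary mouse embryonic fibroblasts (MEFs) lost the call of lamina-associated domain (LAD) over 599 stretches of the autosomes when histone deacetylases were inhibited with trichostatin A (TSA). The segments were chosen by the LAD calls themselves: each was called in all 3 WT lists and in neither of the 2 TSA lists, over a continuous run of 20 kb or more on chromosomes 1 to 19. Together they spanned 55.3 Mb. The bases called in all 3 WT lists, named consensus bases here, summed to 1270 Mb in 2105 continuous runs, named WT blocks. Splitting these blocks by the number of TSA lists that called them gave 3741 segments of 20 kb or longer, of which 599 were in neither TSA list, 1047 in 1 and 2095 in both. The missing segments were therefore 16% of the segments and 4.35% of the consensus bases. The latter share was 8.06% with blocks called in at least 2 of 3 WT lists, 7.90% without TSA embryo 1.8 and 7.67% without TSA embryo x17, where fewer lists must meet the rule. These shares follow from the rule that chose the segments, as do their lengths and places, and they are given as a description without a test.

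In DamID, a fusion of lamin B1 with Dam, an adenine methylase from bacteria, leaves a methyl mark on DNA that comes near the nuclear periphery, and free Dam reports accessibility. LADs are broad, mostly poor in active genes and rich in repressive histone marks, and histones within them are typically low in acetylation. TSA raises histone acetylation. BIX01294 inhibits G9a, which places H3K9me2, a methyl mark common in LADs, and DZNep lowers histone methylation, including that placed by EZH2. Lamins A and C form part of the meshwork that LADs touch.

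The cells were primary MEFs of C57bl/6 background from embryos at e13.5, grown for at most 5 passages. All carried a Dam virus. The 22 sequenced samples were 11 lamin B1 fusion libraries, each with its own Dam-only partner, and each such couple gave 1 LAD list. WT cells had no treatment (embryos 1.5, 1.8 and x17). The TSA, BIX01294 and DZNep cells (embryos 1.8 and x17 for each) were exposed to the compound for 18 to 24 h, then to Dam virus, and were collected at 60 h, with no dose or vehicle in the labels. The shAC cells (embryos 1.5 and x17) were infected with an shLaminA/C virus and selected with puromycin, received the Dam virus 4 days later and were collected after 48 h. The WT cells are not cells with a control hairpin. Embryo names tie libraries to an animal, and embryos 1.8 and x17 gave both a WT and a TSA list.

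The lists hold interval starts and ends in mm9 and no signal, so the read depth behind a call is unknown and a weak contact cannot be told from none. On the autosomes, LADs covered 1377 to 1507 Mb in the WT lists and 1302 to 1356 Mb in the TSA lists. The TSA lists thus lay below all WT lists in total length. Totals were 1339 and 1431 Mb in shAC, 1481 and 1536 Mb in BIX01294, and 1440 and 1457 Mb in DZNep. Of the consensus bases, TSA embryo 1.8 called 92.0% and TSA embryo x17 called 91.7%. When all 11 lists were cut to the total length of the shortest by dropping their shortest LADs, 385 segments of 36.3 Mb met the rule, which were 3.22% of the consensus bases in those lists.

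The missing segments were short beside the blocks that held them. Their median length was 68.0 kb, with quartiles at 32.4 and 124 kb and a longest segment of 543 kb. Segments of 20 to 50 kb were the most frequent, at 236, but held 13.4% of the missing bases. The 166 segments of 100 to 200 kb held 40.8%. Only 5 segments passed 400 kb, and these were all whole blocks. At the limit of 20 kb, the shortest segment kept was 20.2 kb (chr3:75293958-75314157) and the longest one left out was 19.6 kb (chr4:5744321-5763948). Below the limit, 476 further runs met the rule over 2.88 Mb, which was 4.96% of all bases missing from both TSA lists, so the limit removed many runs but few bases.

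**Figure D1:**
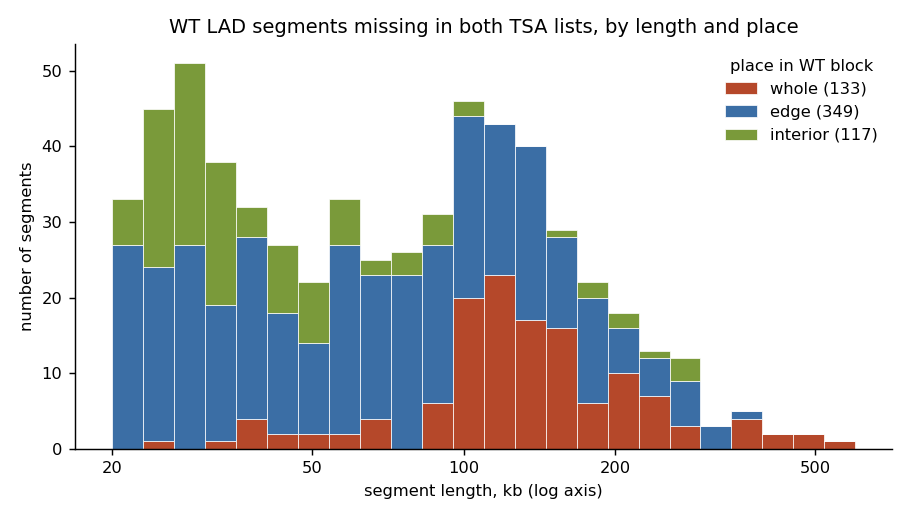
Number of missing segments by length (log axis, kb), stacked by place in the WT block. Interior segments gather at 20 to 50 kb, whole-block segments mostly lie above 100 kb, and edge segments span the range.

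Edge segments were the most frequent of the 3 places. Of the 599, 349 were edge segments that reached 1 end of their block (58.3%, 95% exact binomial interval 54.2 to 62.2), 133 were whole blocks (22.2%, 18.9 to 25.7), and 117 were interior segments that touched neither end (19.5%, 16.4 to 22.9). The intervals cover counting error only, and segments of 1 list are not independent. By length the order was the same: 28.8 Mb at edges, 20.4 Mb in whole blocks and 6.12 Mb in the interior. The joining and the length filter shape these classes by construction, because no gap under 25 kb and no LAD of 100 kb or less can appear in a list. The order of the classes changed with the setting. With the lists as deposited, 41.8% of the segments were whole blocks and 37.6% edges, and for segments of 100 kb or longer 48.9% were whole blocks and 46.1% edges. With the lists cut to the total length of the shortest, TSA embryo x17, which removes short LADs from the other 10 lists, 5.97% were whole blocks and 67.5% edges. Interior segments were 8.26% of those of 50 kb or longer and 5.02% of those of 100 kb or longer.

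Missing segments lay in 535 of the WT blocks, which were 25.4% of them, and 58 blocks held more than 1, up to 4. The share of block bases that was missing fell with block length, from 31.1% in blocks of 20 to 100 kb and 14.9% in blocks of 100 to 250 kb to 5.28% in blocks of 250 to 1000 kb, 2.21% in blocks of 1000 to 2000 kb and 1.10% in blocks of 2000 kb or more. Whole losses followed the same order: 26 of 85 blocks of 20 to 100 kb, 95 of 783 of 100 to 250 kb, 12 of 904 of 250 to 1000 kb and none of the 199 and 129 blocks in the longer classes. The longest blocks were nonetheless touched often, with a missing segment in 47 of the 129 blocks of 2000 kb or more (36.4%). In these, 34 segments were interior and 29 were at an edge.

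Whole-block segments had a median of 126 kb. For 66 of the 133, the LADs that held the segment in all 3 WT lists held no base of a TSA LAD. In 30 of these 66 the segment also had no deposited TSA base, while in others intervals too short to be kept covered up to 93.5% of it. In the remainder, the WT LAD of at least 1 list reached beyond the block into bases that a TSA list called. The longest, chr10:97222796-97766197 (543 kb), was a LAD of 548, 580 and 574 kb in WT embryos 1.5, 1.8 and x17. The nearest LAD in the TSA lists was 1355 and 1344 kb away (embryos 1.8 and x17), which left gaps of 4552 and 5258 kb. The second, chr10:29727345-30242684 (515 kb), stood 403 and 520 kb from the nearest TSA LAD, but deposited intervals too short to be kept covered 34.6% and 16.7% of it in TSA embryos 1.8 and x17. It was followed by chr16:64888053-65371469 (483 kb), where the TSA gap was 860 kb in embryo 1.8 and 868 kb in embryo x17. Next came chr10:15622601-16053974 (431 kb) and chr3:79897841-80307398 (410 kb). For the former, WT LADs extended to 1015, 862 and 535 kb and part of them was still called under TSA. Thus 3 of the 5 longest whole losses lay on chromosome 10. Over all whole-block segments, the nearest LAD was at a median of 145 kb in TSA embryo 1.8 and 169 kb in TSA embryo x17.

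Edge segments reached an end of a WT block, which is where a WT list stopped calling LAD and need not be a LAD end in the others. They lay at the centromere-side end of the block in 181 cases and at the other end in 168, and 21 blocks were shortened at both ends. The distance from the end of the WT block to the first LAD base inside it had a median of 76.0 kb in TSA embryo 1.8 (320 ends) and 72.0 kb in TSA embryo x17 (317 ends). At the remaining ends the rest of the block had no LAD base in that list. Where both lists kept a LAD in the block (288 ends), the retreat differed by a median of 8.44 kb between the TSA lists, and 205 (71.2%) lay within 25 kb of each other. These retreats come from the lists that chose the segments and are a description, with no value for how close the ends of 2 lists lie elsewhere. Retreat was longer in embryo 1.8 at 136 of these ends and equal at 14. The 3 WT lists themselves placed the end over a range of median 83.5 kb. In 152 of the 349 edge segments (43.6%) the segment was longer than the range of the WT ends, and in 100 the WT ends lay within 25 kb of each other.

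**Figure D2:**
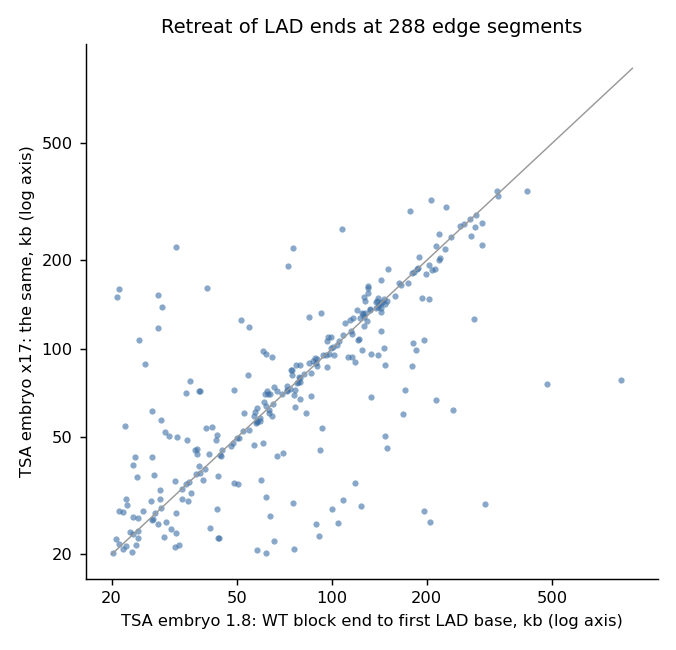
Distance from the end of the WT block to the first LAD base inside it in TSA embryo 1.8 (x axis) and TSA embryo x17 (y axis), both in kb on log axes, at the 288 edge segments where both lists kept a LAD in the block. The grey line marks equal retreat, and 205 of the points differ by at most 25 kb.

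The longest edge segment was chr2:95274848-95618890 (344 kb), at the right end of a block of 781 kb, with a retreat of 418 kb in TSA embryo 1.8 and 344 kb in TSA embryo x17. Next was chr6:66158440-66492589 (334 kb of a block of 682 kb), with 334 and 345 kb in the same order. At chr7:98713694-99046538 (333 kb), embryo x17 called LAD from the inner end of the segment and embryo 1.8 called no base of the block. The fourth, chr14:123323184-123653872 (331 kb), opened a block of 1857 kb that also held the interior segment chr14:123909693-124173213 (264 kb). The fifth, chr2:78083090-78368993 (286 kb), had retreats of 287 and 286 kb, so the TSA ends lay 1.51 kb apart.

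Interior segments lay inside WT blocks of median 1220 kb and had a median of 31.8 kb. In 77 of 117, both TSA lists called LAD on both sides of the segment within the block, and in the others at least 1 list lacked it on a side. The LAD-free gap around them had a median of 43.2 kb in TSA embryo 1.8 and 60.7 kb in TSA embryo x17, and in 39 of 117 the gap differed by at most 25 kb between the lists. The longest was chr5:47144366-47439301 (295 kb), where the gap was 295 kb in embryo x17 and 1598 kb in embryo 1.8. It was followed by chr5:141776617-142044319 (268 kb), by the segment of 264 kb on chromosome 14 named above, by chr14:98355043-98577604 (223 kb), inside a block of 4774 kb, and by chr4:72522546-72725613 (203 kb).

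Deposited intervals too short to be kept as LADs still covered a small part of the missing bases under TSA. Before joining and the length filter, intervals of TSA embryo 1.8 covered 12.5% of the missing bases and touched 155 segments, and those of TSA embryo x17 covered 12.7% and touched 168. In 363 segments (60.6%, 25.2 Mb) neither TSA list held any deposited base. This was so for 103 of 117 interior, 201 of 349 edge and 59 of 133 whole-block segments. In whole blocks 17.2% and 17.1% of the bases carried such remnants in embryos 1.8 and x17, against 1.24% and 2.31% in interior segments. In WT, the deposited intervals covered 97.2%, 94.8% and 91.0% of the missing bases (embryos 1.5, 1.8 and x17), and the rest were gaps under 25 kb that joining had closed. Segments free of such gaps in all 3 WT lists were 48 of 117 interior (41.0%), 161 of 349 edge (46.1%) and 47 of 133 whole-block segments (35.3%), against 52.7% of all 3741 segments, which differ from them in length.

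The missing segments were found on every autosome. Their share of consensus bases ran from 1.49% on chromosome 7 (15 segments, 1.33 Mb) to 7.19% on chromosome 13 (42 segments, 4.01 Mb), with a median of 4.05% over the 19 chromosomes. Chromosome 10 (7.13%) was next to chromosome 13, and chromosome 9 (6.23%) followed. Chromosome 11 was second lowest at 2.29% (17 segments, 1.12 Mb). Chromosome 7 has the most extensive WT consensus of all, 60.0% of its span, and chromosome 11 the least, 41.0%. Low shares thus occurred at both extremes. Along the chromosomes the share was 3.71%, 4.42%, 4.86% and 4.48% of consensus bases in 4 equal parts counted from the centromere side. It was 4.22% in the first 10 Mb and 5.14% in the last 10 Mb.

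**Figure D3:**
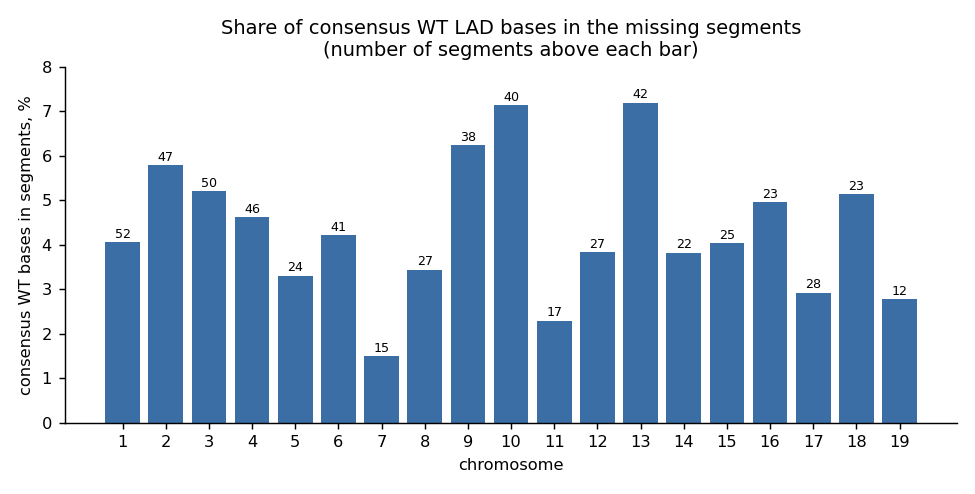
Percent of the consensus WT bases of each autosome that lie in missing segments, with the number of segments above each bar. The bars run from 1.49% on chromosome 7 to 7.19% on chromosome 13.

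The spacing of the segments is a description, with no value for other consensus segments beside it. The nearest other missing segment was at a median distance of 483 kb, and 309 of the 599 (51.6%) had one under 500 kb away. Over the settings tried, this share was lowest with lists cut to one total length (34.0%) and highest with lists as deposited (67.6%). Chaining segments at gaps under 500 kb gave 290 single segments and 127 clusters, of which 35 had 3 or more segments and 3 had 5 or more. Of the neighboring pairs within clusters, 134 crossed from 1 WT block to another and 48 lay in the same block. A single gap between TSA LADs can hold more than 1 segment, because a break in any WT list ends a segment. In windows of 10 Mb, 57 of 258 held no segment. The window with the most missing bases, chosen after its value was seen, was chromosome 9 from 80000001 to 90000000, with 13 segments over 1.55 Mb, or 26.5% of its consensus bases.

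The largest cluster held 10 segments over 3230 kb (chr4:28092990-31322882), with 1154 kb missing, or 41.1% of its consensus bases. LADs covered 97.6%, 89.4% and 94.9% of this span in WT embryos 1.5, 1.8 and x17, against 34.0% and 48.0% in TSA embryos 1.8 and x17. In the lists of other treatments coverage lay between 80.3% (BIX01294 embryo 1.8) and 96.9% (BIX01294 embryo x17). The gap between WT and TSA in these spans follows from the rule and from the choice of the clusters with the most segments. It held 2 whole blocks, 4 edge and 4 interior segments, from 29.9 to 279 kb. The second cluster (chr2:139650199-140977376) held 5 segments over 1327 kb, with 55.1% of its consensus bases missing. LAD coverage there was 80.5% to 90.5% in WT, 31.1% and 31.9% in TSA and 73.8% to 93.3% elsewhere. The third (chr13:118035664-119645117), also of 5 segments, covered 1609 kb, of which LADs held 91.2% to 97.7% in WT, 45.1% and 51.8% in TSA and 86.6% to 95.8% elsewhere. Its interior segment chr13:119164856-119193928 (29.1 kb) was also absent from both shAC and both DZNep lists and was called over 1.74% and 100% of its length in BIX01294 embryos 1.8 and x17.

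**Figure D4:**
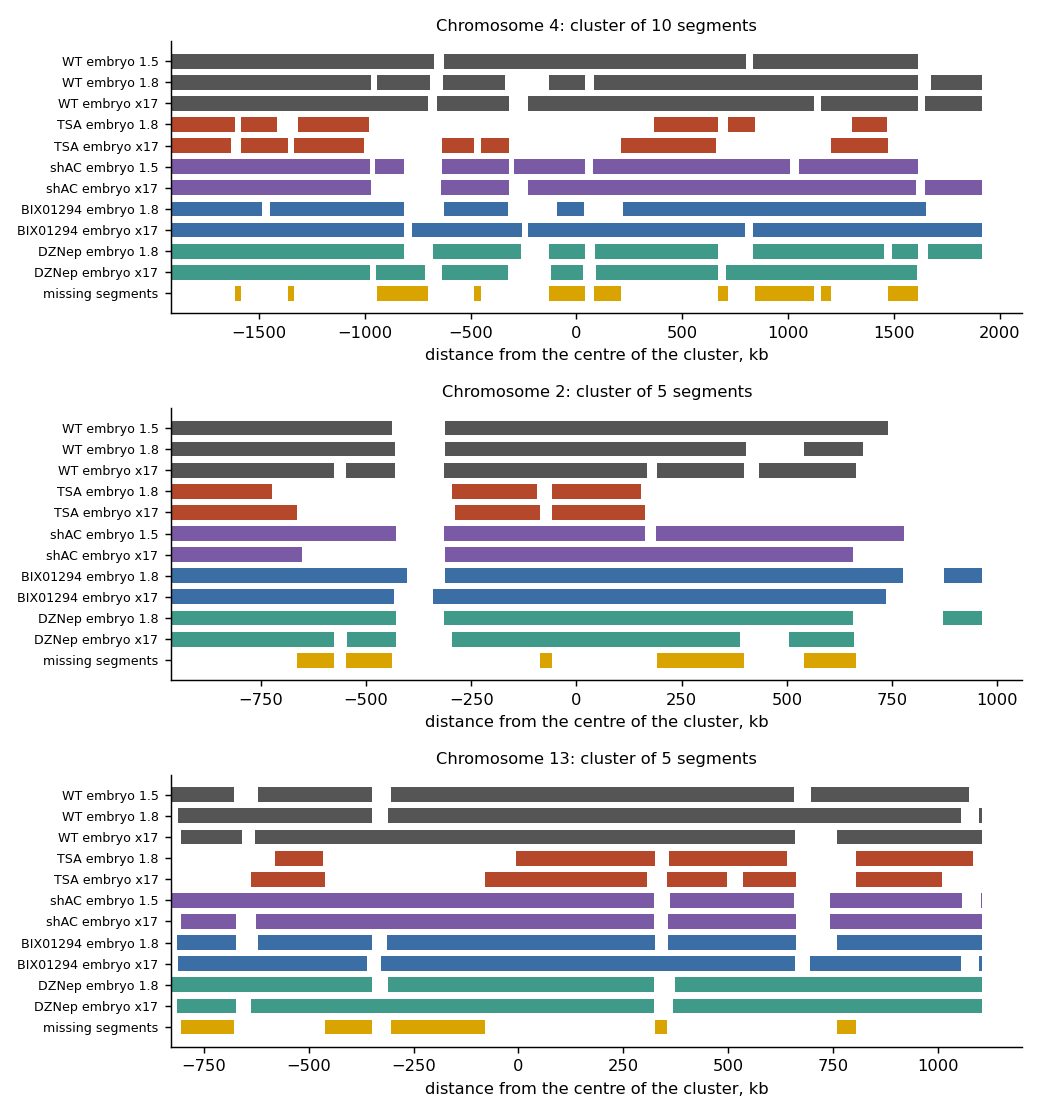
LADs in each of the 11 lists (bars) around the 3 clusters with the most missing segments, drawn as distance in kb from the centre of each cluster, with the missing segments in the bottom row. In the TSA rows large parts of each span are empty, at 31.1% to 51.8% coverage, where the other lists stay at 73.8% or more.

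The shAC, BIX01294 and DZNep lists were not used to choose the segments and show whether these places kept a LAD call under other treatments. Most did. Of the missing bases, 84.4% were called in shAC embryo 1.5 and 72.9% in shAC embryo x17. BIX01294 lists called 86.3% (embryo 1.8) and 92.8% (embryo x17), and DZNep lists called 87.4% (embryo 1.8) and 86.2% (embryo x17). The other consensus bases were called for 98.5% and 95.4% in shAC, 98.8% and 99.5% in BIX01294, and 98.7% and 98.8% in DZNep, in the same order of embryos. In each of the 6 lists the missing segments were therefore called less completely than the rest. The difference was -13.3 ± 5.19 percentage points (SD, n = 6 lists), from -22.5 in shAC embryo x17 to -6.71 in BIX01294 embryo x17. An exact sign-flip permutation test over the lists (two-sided) gave p = 0.03125, the smallest that 64 arrangements allow, and 0.09375 after Benjamini-Hochberg adjustment over 6 tests, which does not pass 0.05. Without WT embryo x17 the difference was -22.4, and with bases called in at least 2 of 3 WT lists it was -24.2. The 6 lists share embryos and WT blocks, so they are not fully independent.

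Bases near a block end were called less often in both classes. Within 50 kb of an end, the missing bases were called for 66.8% to 90.4% and the other consensus bases for 83.4% to 98.0%. The difference between these, a comparison added after the values were seen, was -12.8 ± 3.05 percentage points (SD, n = 6 lists), below 0 in 6 of 6 (exact sign-flip permutation test, two-sided, unadjusted p = 0.03125), beside -13.3 over all bases. The missing and the other bases were not matched for block length, and the part of nearness to an end was not tested. All missing bases, near an end or not, set against the other bases near an end gave -8.49 ± 1.91 percentage points (SD, n = 6 lists, 6 of 6 below 0, exact sign-flip permutation test, two-sided, p = 0.03125, adjusted 0.09375), and -15.3 without WT embryo x17. Segments that 1 TSA list had called were intermediate: 91.0% and 80.8% of their bases were called in shAC, 91.6% and 97.1% in BIX01294, and 92.4% and 93.0% in DZNep. Those called in both TSA lists stood at 96.7% to 99.8%.

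**Figure D5:**
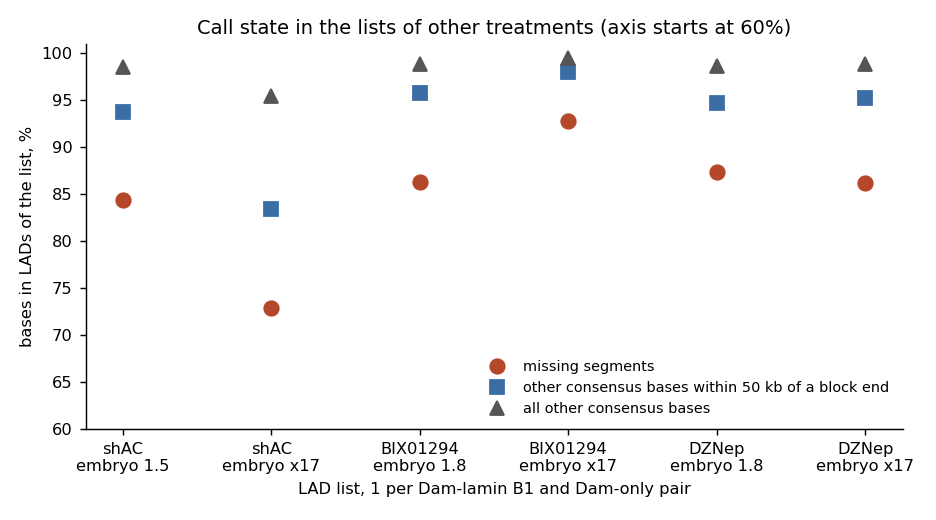
Percent of bases in LADs of each shAC, BIX01294 and DZNep list (x axis) for the missing segments (circles), other consensus bases within 50 kb of a block end (squares) and all other consensus bases (triangles). The y axis starts at 60%, and in every list the circle is lowest, from 72.9% to 92.8%.

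Among the other treatments, knockdown of lamins A and C had the lowest share. The mean was 78.6% ± 8.10 in shAC, 89.6% ± 4.62 in BIX01294 and 86.8% ± 0.879 in DZNep (SD, n = 2 each). The shAC values lay below those of both drugs, and the ranges of BIX01294 and DZNep overlapped. In 3 of 22 alternatives shAC overlapped a drug: with joining under 50 kb, without WT embryo 1.8 and without TSA embryo x17, where shAC embryo 1.5 reached 86.7%, 82.3% and 87.9%. An exact permutation of the treatment names over the 6 lists gave p = 0.133 (one-sided, 90 arrangements, adjusted 0.267), where 0.0667 is the smallest it can give. Pairwise differences were -10.9 percentage points for shAC minus BIX01294 and -8.17 for shAC minus DZNep (exact permutation tests, two-sided, p = 0.333 each, the smallest possible, adjusted 0.4), and 2.76 for BIX01294 minus DZNep (exact p = 0.667, adjusted 0.667). Without shAC embryo x17 the first 2 differences were -5.20 and -2.44, and in lists cut to one total length they were -4.77 and -5.40. Other libraries left out widened them, to -17.9 for shAC minus BIX01294 without WT embryo x17 and -13.9 for shAC minus DZNep without shAC embryo 1.5. BIX01294 minus DZNep changed sign, to -0.625 in lists cut to one total length and -0.513 without BIX01294 embryo x17. The list with the lowest share, shAC embryo x17, was the shortest of these 6, and that with the highest, BIX01294 embryo x17, was the longest. Between them the share rose with list length, except in DZNep embryo 1.8 (87.4% at 1440 Mb), which exceeded the longer DZNep embryo x17 and BIX01294 embryo 1.8. In lists cut to one total length, the shares of the segments chosen there were 85.0% and 77.0% in shAC, 85.1% and 86.4% in BIX01294 and 86.4% in both DZNep lists, and the difference from other consensus bases was -13.4 percentage points.

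Segment by segment, a call over at least 50% of the length was taken as kept. It was found for 501 and 427 of the 599 segments in shAC (embryos 1.5 and x17), 514 and 552 in BIX01294 and 518 and 514 in DZNep (embryos 1.8 and x17 for each). These are 83.6%, 71.3%, 85.8%, 92.2%, 86.5% and 85.8% of the segments, against 94%, 85.7%, 95.2%, 97.8%, 95.1% and 95% of all 3741 segments in the same lists. All 6 lists kept 299 segments (49.9%), compared with 77.2% over all segments. No segment was without a called base in all 6 lists, and 1 was under the 50% limit in all of them, an edge segment of 22.8 kb (chr9:107149700-107172521, background 0.0535%). At the other end, 121 segments (20.2%, 8.12 Mb) were called over their full length in all 6 lists, against 37.1% of all segments. They comprised 66 edge, 50 interior and 5 whole-block segments. The longest were chr10:26907181-27288539 (381 kb, a whole block), the interior segment of 295 kb on chromosome 5 named above, and chr16:51293184-51568750 (276 kb), an edge with TSA retreats of 276 kb in both embryos.

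Segments that a second treatment also lacked were a minority. Both shAC lists lacked 66 segments (11.02%, background 3.8%), both DZNep lists 32 (5.34%, background 1.52%) and both BIX01294 lists 16 (2.67%, background 0.775%), while 505 (84.3%, background 94.7%) were lacking in both lists of none of these treatments. For shAC alone the number was 51 (8.51%, background 3.18%), for DZNep alone 17 (2.84%, background 0.909%) and for BIX01294 alone 7 (1.17%, background 0.401%). Exactly shAC and DZNep lacked 10 (background 0.401%), shAC and BIX01294 lacked 4 (background 0.16%), BIX01294 and DZNep lacked 4 (background 0.16%) and all 3 lacked 1 (background 0.0535%). Both lists called 395 segments in shAC (65.9%, background 83.5%), 483 in BIX01294 (80.6%, background 93.7%) and 465 in DZNep (77.6%, background 91.7%). The same rule applied to each treatment in place of TSA found 193 segments of 13.2 Mb for shAC, 97 of 4.52 Mb for DZNep and 50 of 2.32 Mb for BIX01294, all against the same 3 WT lists. Of the bases in these, 40.3% (shAC), 49.9% (DZNep) and 57.2% (BIX01294) lay in the segments missing under TSA, which hold 4.35% of all consensus bases. This overlap was 9.63%, 4.08% and 2.40% of the TSA segments, where the shAC, DZNep and BIX01294 sets hold 1.04%, 0.356% and 0.183% of the consensus bases. These comparisons share the WT lists, so the shares are a description.

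By bases, interior segments were called for 83.3% to 93.5% in the 6 lists, edge segments for 72.8% to 93.1% and whole-block segments for 69.9% to 92.2%. The order of the places depended on the measure. By the share of bases in deposited intervals, before joining, interior segments were lowest in each list, at 71.5% to 82.0%, against 72.8% to 87.9% at edges and 76.6% to 91.3% in whole blocks. Interior segments were also lowest in each WT list, at 86.5% to 96.0%, against 90.8% to 96.6% at edges and 92.6% to 98.5% in whole blocks. Segments over 200 kb were called more completely than each shorter class in all 6 lists, and below 200 kb the order of the classes changed between lists. The 48 segments of 200 to 400 kb were called for 78.9% to 97.3%. The 5 longest segments, all over 400 kb, were called for 91.0% and 92.2% in shAC, 92.7% and 99.7% in BIX01294 and 98.1% and 99.7% in DZNep. Segments of 20 to 50 kb were called for 68.5% to 89.4%, and those of 100 to 200 kb for 69.1% to 91.4%. The longest, the 543 kb on chromosome 10, was called in full in 5 of the 6 lists and over 83.1% in BIX01294 embryo 1.8. The end of the WT block itself was also scored at the 349 edge segments. It was called at 231 and 193 of these ends in shAC, 263 and 276 in BIX01294 and 237 and 231 in DZNep, or 55.3% to 79.1% of them. The 3585 other block ends were called for 67.6% to 89.3% in these lists, and in each list the share was higher at the other ends. A retreat of 20 kb or more was seen at 59 and 93 ends in shAC (16.9% and 26.6%), 45 and 22 in BIX01294 (12.9% and 6.30%) and 56 and 55 in DZNep (16.0% and 15.8%). At the other block ends the shares were 2.85% and 7.42%, 2.59% and 0.893%, and 3.46% and 2.76% in the same order. On chromosome 11, 32.4% of the missing bases were called in shAC embryo x17, the lowest share of any autosome in that list, against 75.1% in shAC embryo 1.5.

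Some segments were lacking in several treatments at once. The whole block chr3:132366285-132521568 (155 kb) had no called base in either shAC list, in BIX01294 embryo x17 or in DZNep embryo x17, was called over 48.3% in BIX01294 embryo 1.8 and in full in DZNep embryo 1.8. The whole block chr6:148910012-149031481 (121 kb) was called in full in DZNep embryo 1.8 and over no base in the other 5 lists. The edge segment chr2:151826169-151940289 (114 kb) was called over 77.5% in DZNep embryo x17 and over at most 1.24% in each of the others. These 3 were chosen after their values were seen, from the 16 segments that 1 list kept (2.67%, against 0.535% of all segments).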

How the data were processed

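The authors deposited 1 list of called LAD intervals per pair of Dam-lamin B1 and Dam-only libraries. The values are base positions in mm9, per the labels, and carry no signal or score. The methods of the study name LADetector, and the aligner and versions are not given in the sources used here. The Dam-only libraries enter through the lists. In each list, on chromosomes 1 to 19, intervals less than 25 kb apart were joined and those over 100 kb kept. Positions were written counting from 1. Segments were runs of bases called in all 3 WT and neither TSA list, 20 kb or longer. The members, tests and alternatives were chosen with earlier results of these data known. Named segments are the 5 longest per place class, the 3 clusters with the most segments and the 3 longest called in full in all 6 other lists. A class of segments with no called base there was empty. Named outside this rule are 3 segments kept by 1 list, 1 kept by no list, those at the limit of 20 kb and 1 in the third cluster.

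WT, TSA, BIX01294 and DZNep share embryos 1.8 and x17, and WT and shAC share embryos 1.5 and x17, so replicate numbers pair libraries of 1 embryo except where embryos 1.5 and 1.8 meet. Tests were exact permutations over lists, adjusted with the Benjamini-Hochberg method over 6 tests. Nothing says that cultures of 1 embryo were separate, so the p-values measure the spread between these lists. Depth is unknown and the number of lists limits precision. No mm9 genome or annotation was used here, so genes and sequences are not given. Python 3.11.15, numpy 2.4.6, scipy 1.17.1 and matplotlib 3.10.9 were used. The code was checked on 2 identical lists without noise, made by cutting stretches out of the WT blocks. Of the cut stretches of 20 kb or longer, 192 of 192 were recovered with 0 false ones. This checks the interval arithmetic and is not a detection rate for real lists. Alternatives were the lists as deposited, other joining distances, LAD and segment lengths, chromosome X, equal total lengths, 2 of 3 WT lists, the replicate block and leaving out each library.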

Additional observations from a re-analysis of the deposited data

How the results depend on the processing

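Of 299 values recomputed for 19 results, 230 stayed within their limit and 55 moved further. The limit was the direction and side of 0.05 for tests, 1.5 times for counts and lengths, the 95% binomial interval for shares of segments and 1 SD between the 2 lists for bases called, which is narrow for DZNep. Of the rest, 12 no longer had an unadjusted p under 0.05 and 2 reversed. The comparison of the 3 treatments and its pairs could not pass 0.05, as their smallest exact permutation p is 0.0667 and 0.333. So the former stayed within its limit by construction, and a pair could leave it only by changing sign. The counts thus do not measure how stable these values are. The cause was not tested unless stated. The number of segments was 363 and 219 at minimum lengths of 50 and 100 kb, 385 (36.3 Mb) with lists cut to one total length and 1109 (116 Mb) with bases called in at least 2 of 3 WT lists. Leaving out each WT or TSA library gave 687 to 1040 segments and 66.0 to 100.3 Mb, since fewer lists must then meet the rule. It was 1040 without TSA embryo 1.8 and 981 (97.5 Mb) without TSA embryo x17.

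Missing bases called were 64.04% in shAC, 79.4% in BIX01294 and 72.6% in DZNep for 2 of 3 WT lists. With each library left out they ran from 65.3% to 84.4% in shAC, 83.1% to 92.8% in BIX01294 and 76.4% to 89.5% in DZNep, lowest in each case without WT embryo x17. For DZNep they were 88.3% with lists as deposited, 88.1% with LADs over 50 kb, 88.3% for segments of 100 kb or longer and 80.9% in the replicate block. The block used WT and TSA of embryos 1.8 and x17 alone and gave 835 segments of 80.9 Mb. In it the difference from other consensus bases was -18.0 percentage points (-9.78 near block ends), and the comparison of the 3 treatments gave an exact permutation p = 0.167, the smallest possible there. The block changed no call.

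Segments with a neighbor under 500 kb away were 35.2% with LADs over 200 kb and 39.0% with joining under 50 kb. The difference from other consensus bases ran from -22.4 to -10.3 percentage points with each library left out, and near block ends from -15.3 to -5.73. The comparison with both sides limited to block ends was added after seeing the data. Without 1 of the 6 lists the exact sign-flip p was 0.0625, the smallest 5 lists allow. The direction of both differences was kept in each alternative. With each library left out, shAC minus BIX01294 ran from -17.9 to -5.20 and shAC minus DZNep from -13.9 to -2.44. BIX01294 minus DZNep changed sign, to -0.625 with lists cut to one total length and -0.513 without BIX01294 embryo x17, and reached 6.76 percentage points without WT embryo x17. Read depth is not in the lists, so its part in any call was not tested.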
